A study of Homo sapiens with 12 samples.

Results

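The genes described here are the replication-dependent histone genes of THP-1 cells, a human monocytic leukaemia line. They were chosen by name: protein-coding genes whose current symbol is H2AC, H2BC, H3C or H4C followed by a number, or H1-1 to H1-6. The count tables listed 65 such genes among 57500 gene identifiers: 6 of linker histone H1, 15 of H2A, 18 of H2B, 11 of H3 and 15 of H4. On GRCh38, 53 of them lay on chromosome 6 between positions 25726132 and 27893843, and 11 lay on chromosome 1. The last, H4C16, lay on chromosome 12. H2AC18, H2AC19, H3C2 and H3C3, which also carry such symbols, were not analysed here.

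The study asked how a raised CO2 level acts on these cells with and without an inflammatory stimulus. All 4 groups carried the same lentiviral non-target shRNA, and each held 3 libraries. In the first group, cells were kept for 4 h at 10% CO2 in buffered medium, with 2.5 µg/ml LPS, a bacterial cell wall component sensed through TLR4, for the final 2 h. The second group received the same LPS at 5% CO2, the usual level for culture. The remaining groups were kept without LPS for 4 h, one at 10% CO2 and one at 5% CO2. The labels do not say whether the transduced line was 1 clone. They also do not say that the replicates were grown apart, so each p-value reflects only how much these libraries vary, and that may be technical variation.

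Core histones H2A, H2B, H3 and H4 form the protein spool around which DNA is wound, and H1 binds the linker DNA between spools. Cells make most of these proteins during S phase, from clustered gene copies without introns that are transcribed together with DNA replication. Their mRNAs are unusual in animals: most end not in a poly(A) tail but in a conserved stem-loop, which is bound by SLBP and marks the site where the U7 small nuclear RNP directs cleavage. Some of the same genes also yield longer, polyadenylated transcripts that run past the stem-loop, and these are known from differentiated and non-dividing cells. The libraries here were poly(A)-selected, so the counts are the part of histone RNA recovered through a tail, or carried over, and not the total.

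The stem-loops are shown because an mRNA that ends at one carries no tail by which it could be selected. Searching the GRCh38 genome within 150 bases after each stop codon for GGNNNTNTNNANNNCC with 6 paired stem bases found a stem-loop in 60 of the 65 genes. It began 23 to 63 bases after the stop codon (median 36). The 60 copies had 5 forms, written here 5′ to 3′ with the paired stem in capitals and the 4-base loop in lower case. None was found for H2AC11, H2AC15, H2BC10, H3C6 and H4C13, which says only that these letters are not in that window.
H2BC21, chr1:149886188-149886203, minus strand, a form held by 36 genes: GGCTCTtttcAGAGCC
H2BC4, chr6:26123472-26123487, minus strand, a form held by 9 genes: GGCTCTtttaAGAGCC
H2AC20, chr1:149887391-149887406, plus strand, held by this gene alone: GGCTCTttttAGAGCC
H4C5, chr6:26205001-26205016, plus strand, held by 10 genes, all H4: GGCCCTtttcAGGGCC
H4C9, chr6:27139654-27139669, plus strand, held by 4 genes, all H4: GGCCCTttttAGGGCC
Every H4 stem-loop found had GGCCCT as the 5′ side of its stem, and every one of the other families had GGCTCT.

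The exons counted for these genes differed in whether they reached past the stem-loop. For 28 genes the counted exons ran beyond it, and these held 55.3% of all counts of the family. For 32 genes they stopped at or before it, and these held 42.6%. Per kilobase of counted exon, the median level was 0.257 CPM (counts scaled to library size, with TMM factors) in the first set and 0.356 CPM in the second. The stem-loop of H2BC21, for example, is followed by 1729 further counted bases, that of H2BC18 by 2707 and that of H4C5 by 1022, while the counted exons of H2BC12, H2AC20, H4C3 and H1-2 end before the loop.

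**Figure D1:**
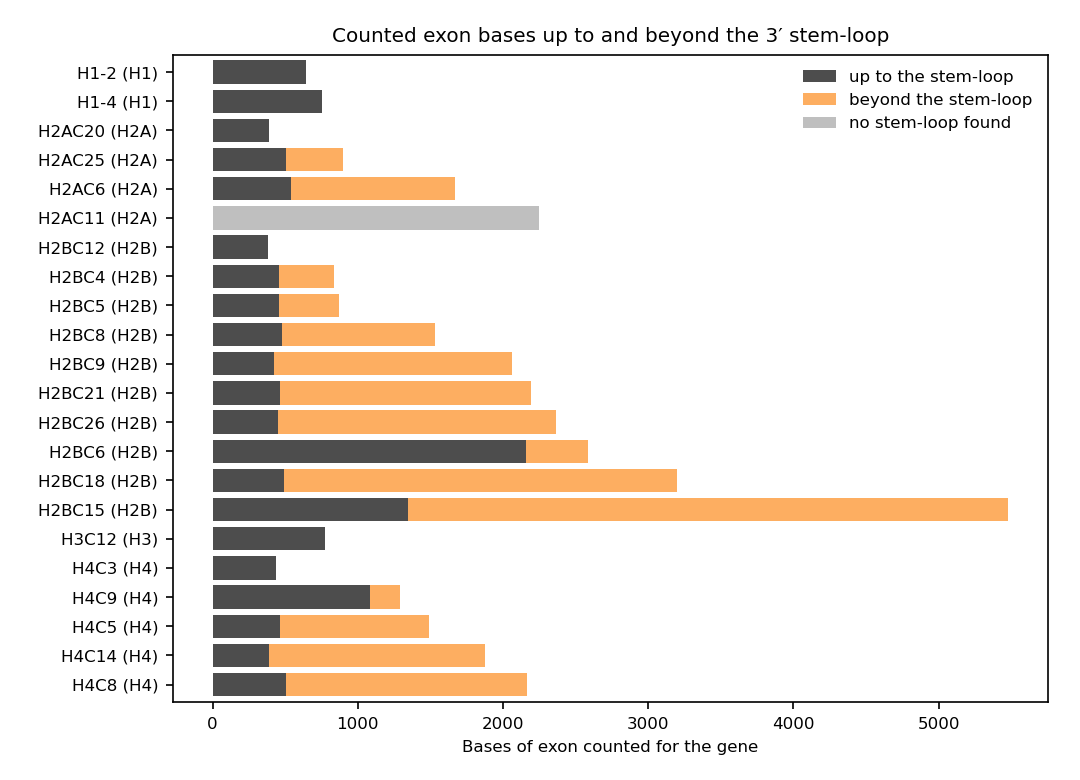
Bases of exon counted for each of the 22 histone genes that passed the count filter, split at the 3′ stem-loop; bar lengths are in bases. Of the 22, 15 have counted bases beyond the stem-loop (orange), 6 have none, and H2AC11 (grey) has no stem-loop found.

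Total gene counts ranged from 17.1 to 22.2 M per library, and 3 counts in a library corresponded to 0.132 to 0.179 CPM. Of 10 monocytic marker genes, 10 had a mean of at least 1 CPM, from 1.69 CPM for CD68 to 403 CPM, whereas the summed levels of markers of T cells, B cells, red cells, epithelium and fibroblasts were 0.971 to 2.89, 1.42 to 4.21, 0 to 0.179, 1.39 to 2.54 and 1.97 to 3.43 CPM. Of the 3 red cell markers, 1 had no count in any library. TRAC, a T cell receptor gene and the only T cell marker tested, averaged 0.618 CPM at 10% CO2 with LPS and 1.65 CPM at 5% CO2 with LPS (log2 change −1.43 ± 0.32, adjusted p = 0.0108), and its part in the histone values was not tested. Of the monocytic markers, 3 rose and 3 fell with LPS at 10% CO2 (CEBPA −2.72, CD33 −0.49 and SPI1 0.56 on the log2 scale), and 0 rose and 2 fell at 10% against 5% CO2 with LPS (CEBPA −0.88 and CSF1R −0.62). All 5 genes chosen as a check of LPS treatment rose with LPS at both CO2 levels, among them CCL4, by 10.05 on the log2 scale at 10% CO2 and 9.70 at 5% CO2. Mitochondrial mRNAs took 1.27 to 4.10% of counts. In the group at 10% CO2, replicates 1 and 3 differed more (chi-square per degree of freedom 29.2) than any other pair of libraries of a group (8.91 to 15.9), and replicate 3 gave the lowest summed histone level of all libraries.

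Few of the histone genes were abundant. A gene was tested where edgeR's filterByExpr, with a minimum count of 10 in about as many libraries as a group holds, kept it. Of 65 histone genes, 22 passed (33.8%), among 16402 genes in all. The 22 were 2 of H1 (H1-2, H1-4), 4 of H2A (H2AC6, H2AC11, H2AC20, H2AC25), 10 of H2B (H2BC4, H2BC5, H2BC6, H2BC8, H2BC9, H2BC12, H2BC15, H2BC18, H2BC21, H2BC26), 1 of H3 (H3C12) and 5 of H4 (H4C3, H4C5, H4C8, H4C9, H4C14). They held 89.3% of the family's counts. Their mean levels ran between 0.354 and 5.19 CPM with a median of 1.03 CPM, against a median of 15.7 CPM over all genes tested. A low gene could pass through the group in which it was high, so the number passing is no measure of change.

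The remaining 43 genes stayed below the filter, the most abundant at 0.333 CPM (H2AC8) and none with more than 22 counts in a library. H1-1, H2AC1, H2AC15, H2BC1, H3C4 and H4C11 had 0 counts in all 12 libraries, below the 0.132 to 0.179 CPM that 3 counts would give. The other 37 had some counts but too few to test. In H1 they were H1-3, H1-5 and H1-6. In H2A they were H2AC4, H2AC7, H2AC8, H2AC12, H2AC13, H2AC14, H2AC16, H2AC17 and H2AC21, and in H2B they were H2BC3, H2BC7, H2BC10, H2BC11, H2BC13, H2BC14 and H2BC17. In H3 they were H3C1, H3C6, H3C7, H3C8, H3C10, H3C11, H3C13, H3C14 and H3C15. In H4 they were H4C1, H4C2, H4C4, H4C6, H4C7, H4C12, H4C13, H4C15 and H4C16.

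Near-identical copies limit what some of these values mean, because the sources used here do not say how reads with several best places were counted. Every 50-base stretch of the counted exons of H4C14 also occurs in H3C14, H3C15 or H4C15 (100%), and yet H4C14 had 140 counts in all and H4C15 had 3. The share was 22.6% for H2BC12, whose copies are other H2B genes, and 43.9% for H3C12, whose counted exons take in part of the H2A gene H2AC17. It was 7.23% for H2BC21, 6.39% for H2BC4, 5.33% for H2BC18 and 0.591% for H2AC11. For H4C5, H4C3, H4C8, H1-2, H1-4, H2AC25, H2BC8 and H2BC9 it was 0, counting copies among the 65 genes only. In addition, 177 counted bases of H2BC18 lie within exons of FCGR1A, and 346 of H3C12 within those of H2AC17.

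**Figure D2:**
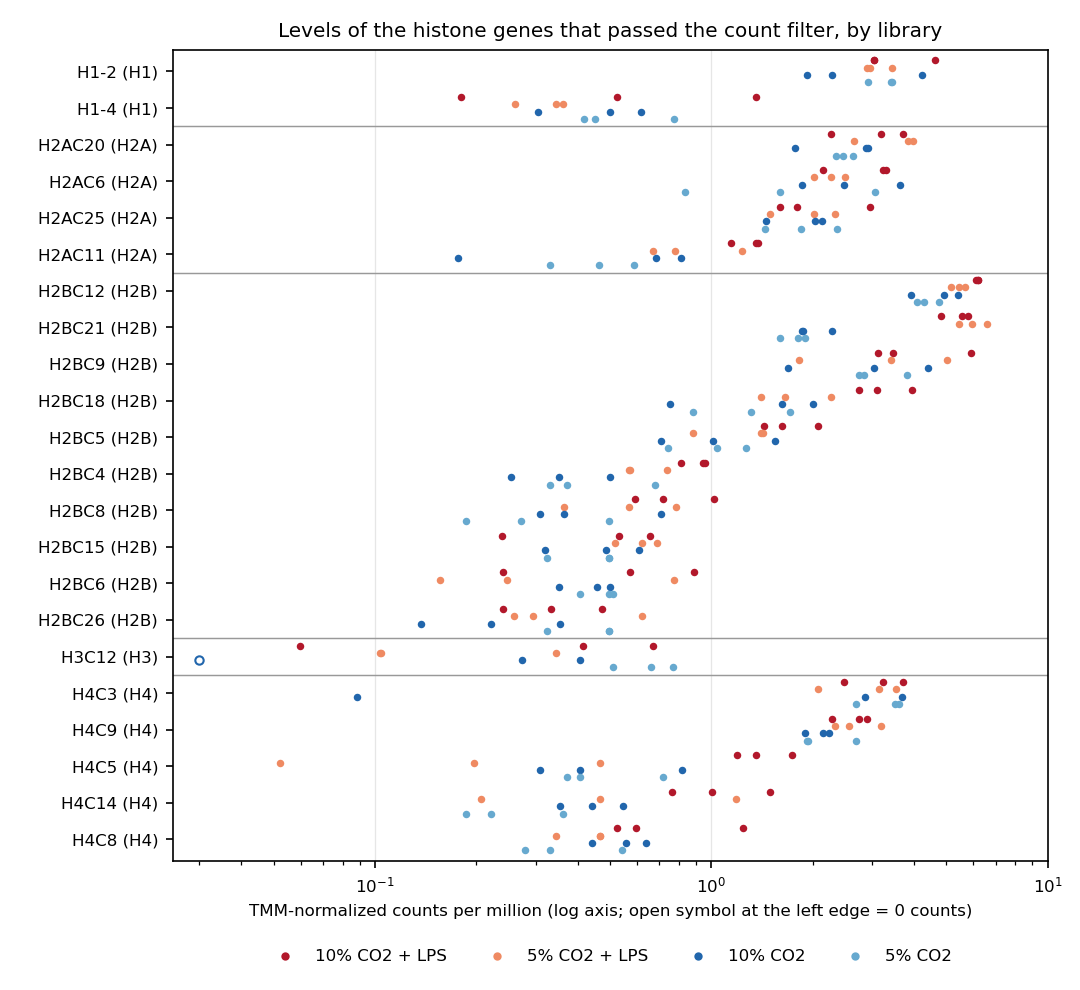
Levels of the 22 tested histone genes in each of the 12 libraries, in TMM-normalized CPM on a log axis, grouped by family; each point is a library, and an open symbol marks 0 counts. Most groups overlap, H2BC21 is high in all 6 LPS libraries, H4C3 has 1 library at 10% CO2 far below the others, and H3C12 has 1 at 0 counts there.

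Set against length, the most abundant gene was H2BC12, an H2B gene, at 13.6 CPM per kilobase of counted exon. Its level was 6.21, 6.22 and 6.11 CPM at 10% CO2 with LPS and 5.46, 5.69 and 5.16 CPM at 5% CO2 with LPS. Without LPS it was 4.92, 5.42 and 3.93 CPM at 10% CO2 and 4.74, 4.30 and 4.08 CPM at 5% CO2. All LPS libraries at 10% CO2 lay above all others, but no comparison passed the test, and the change nearest to passing was LPS at 10% CO2 (log2 change 0.38 ± 0.16, adjusted p = 0.0668, ± being the SE for each log2 change). H2AC20, an H2A gene, followed at 7.41 CPM per kilobase. It had 3.19, 2.27 and 3.72 CPM at 10% CO2 with LPS, 2.65, 3.98 and 3.84 CPM at 5% CO2 with LPS, 1.78, 2.89 and 2.91 CPM at 10% CO2, and 2.35, 2.65 and 2.46 CPM at 5% CO2. Its groups overlapped except for LPS at 5% CO2, where the nearest libraries all but touched and the log2 change was 0.49 ± 0.24 (adjusted p = 0.146).

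H4C3, an H4 gene at 6.65 CPM per kilobase, showed a single library far from the rest. Its level was 3.73, 3.23 and 2.48 CPM at 10% CO2 with LPS and 2.08, 3.15 and 3.54 CPM at 5% CO2 with LPS. At 10% CO2 it was 2.87 and 3.70 CPM in replicates 1 and 2 but 0.0883 CPM in replicate 3, which is 2 counts against 63 and 73. At 5% CO2 it was 3.61, 2.70 and 3.53 CPM. H1-2, a linker histone gene (4.96 CPM per kilobase), did the opposite in that library. It had 2.28 and 1.93 CPM in replicates 1 and 2 at 10% CO2 and 4.24 CPM in replicate 3, against 2.92 to 3.43 CPM at 5% CO2. With LPS it had 4.61, 3.05 and 3.05 CPM at 10% CO2 and 2.96, 2.89 and 3.44 CPM at 5% CO2. No comparison of either gene passed the test.

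H2AC25, an H2A gene counted partly beyond its stem-loop, stood at 2.19 CPM per kilobase. It had 1.60, 1.79 and 2.96 CPM at 10% CO2 with LPS, 2.34, 1.499 and 2.02 CPM at 5% CO2 with LPS, 1.46, 2.13 and 2.03 CPM at 10% CO2, and 1.85, 2.37 and 1.44 CPM at 5% CO2. These values overlapped in each pairwise comparison, and the largest log2 change was 0.20 ± 0.28, with LPS at 10% CO2. H4C9, an H4 gene at 1.86 CPM per kilobase, had 2.90, 2.75 and 2.29 CPM at 10% CO2 with LPS and 2.34, 3.20 and 2.56 CPM at 5% CO2 with LPS. Without LPS it had 2.14, 2.23 and 1.90 CPM at 10% CO2 and 1.94, 1.93 and 2.69 CPM at 5% CO2. The libraries at 10% CO2 with LPS lay above those at 10% CO2 without it, but the log2 change of 0.34 ± 0.22 (95% interval −0.12 to 0.79) was not called.

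Summed over the 65 genes, the histone level was highest with LPS at 10% CO2. The sum was 58.2, 50.5 and 52.7 CPM at 10% CO2 with LPS, 38.1, 42.6 and 46.3 CPM at 5% CO2 with LPS, 37.9, 38.6 and 30.9 CPM at 10% CO2, and 38.0, 35.4 and 32.4 CPM at 5% CO2. The group means were 53.8 ± 3.94, 42.3 ± 4.11, 35.8 ± 4.23 and 35.2 ± 2.83 CPM in the same order (SD, n = 3). On the log2 scale, the sum at 10% CO2 with LPS was 0.59 above that at 10% CO2 and 0.35 above that at 5% CO2 with LPS. With LPS at 5% CO2 the difference was 0.26, and between 10% and 5% CO2 without LPS it was 0.02. No test is given for a sum over genes chosen with results of these data known.

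H2B genes made up the largest part of that sum. They added up to 25.6 ± 1.40 CPM at 10% CO2 with LPS, 21.001 ± 1.72 at 5% CO2 with LPS, 15.3 ± 1.14 at 10% CO2 and 14.4 ± 0.776 at 5% CO2 (SD, n = 3). All 6 LPS libraries, at 19.1 CPM or more, lay above all 6 without LPS, at 16.3 CPM or less. H2BC21 alone had means of 5.39, 6.02, 2.00 and 1.77 CPM in the same order of groups. Without H2BC21, the H2B sums with and without LPS overlapped at 5% CO2 but not at 10% CO2. H2A genes had 11.7 ± 0.596, 9.47 ± 0.830, 9.09 ± 1.14 and 7.86 ± 1.37 CPM in the same order of groups. H4 genes had 9.96 ± 1.70, 7.25 ± 1.37, 6.44 ± 2.57 and 7.33 ± 0.958 CPM, and these overlapped in each of the 4 pairwise comparisons. H1 genes had 5.01 ± 1.73, 3.86 ± 0.539, 4.04 ± 1.08 and 4.27 ± 0.316 CPM. H3 genes, all but absent from these libraries, had 1.55 ± 0.519, 0.762 ± 0.212, 0.889 ± 0.399 and 1.34 ± 0.533 CPM.

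**Figure D3:**
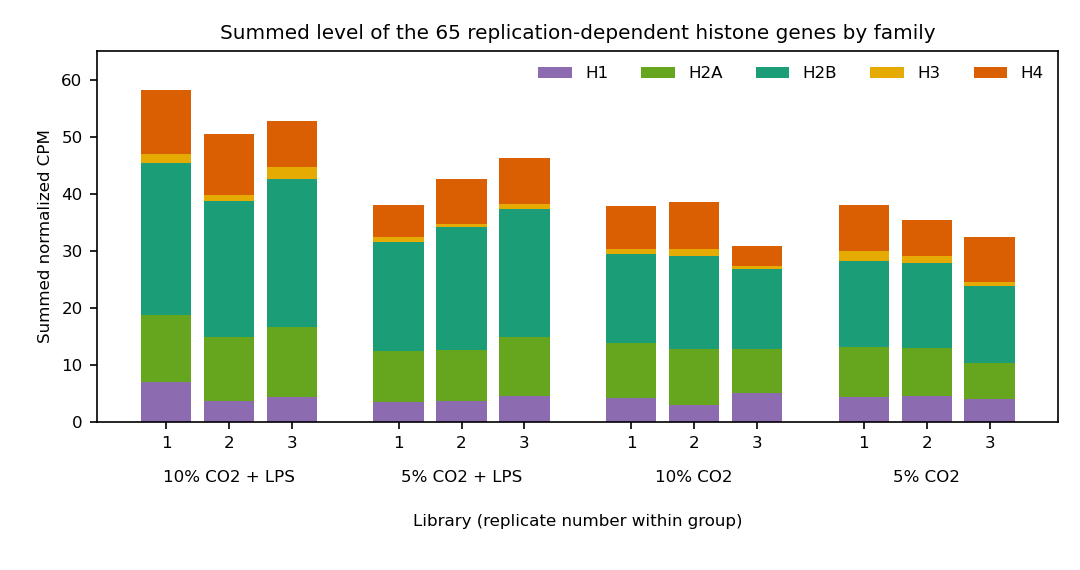
Summed TMM-normalized CPM of the 65 histone genes in each library, stacked by family, with replicate numbers on the x axis. The 3 libraries at 10% CO2 with LPS reach 50.5 to 58.2 CPM and all others 30.9 to 46.3 CPM, and the H2B part is the widest in every library.

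The sum of the 28 genes counted beyond the stem-loop was 31.2 ± 1.69 CPM at 10% CO2 with LPS, 24.4 ± 1.90 at 5% CO2 with LPS, 19.3 ± 1.502 at 10% CO2 and 17.9 ± 1.72 at 5% CO2 (SD, n = 3). For the 32 genes not counted beyond it, the sums were 21.2 ± 2.35, 17.02 ± 2.10, 15.8 ± 2.49 and 16.9 ± 1.09 CPM in the same order. The first set separated LPS from no LPS at both CO2 levels, since its lowest LPS library had 22.7 CPM and its highest library without LPS 20.5 CPM. H2BC21 belongs to this set. Without it, a choice made after seeing the values, the sums of the other 27 were 25.8 ± 1.47 CPM at 10% CO2 with LPS, 18.4 ± 2.27 at 5% CO2 with LPS, 17.3 ± 1.33 at 10% CO2 and 16.1 ± 1.73 at 5% CO2, and the libraries with and without LPS overlapped at 5% CO2. In the second set, too, the libraries with and without LPS overlapped at 5% CO2. At 10% CO2 they did not overlap in either. The 27 genes had 24.4 to 27.3 CPM with LPS against 15.8 to 18.3 CPM, and the second set 19.0 to 23.7 against 13.1 to 17.9 CPM. Whether the 2 sets differ in response was not tested.

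LPS at 10% CO2 gave the most calls. Of the 22 genes tested, 5 rose (22.7%) and 0 fell, beside 35.2% of all genes called in either direction and 16.6% called higher. The 5 were the H2B genes H2BC21, H2BC18 and H2BC4, the H2A gene H2AC11 and the H4 gene H4C5. In all, 21 of 22 log2 changes lay above 0 with a median of 0.51, against a median of −0.02 over all genes tested. The exception was H2BC15 at −0.01. H4C5 (23, 29 and 25 counts) and H4C14 (17, 25 and 16 counts) reached the filter's level in every library at 10% CO2 with LPS and in few others. For such genes the filter favours a change above 0 here. The sign count and the median are therefore descriptions and were not tested. The libraries at 10% CO2 with LPS enter both this comparison and the one with 5% CO2 with LPS, so these are not independent. In bulk libraries such as these, a change in the share of cells that express a gene cannot be told apart from a change in its RNA per cell.

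On GRCh38, H2BC21 (ENSG00000184678) spans chr1:149884459-149886652 and H2BC18 (ENSG00000203814) chr1:149782689-149812373, both on the minus strand. H2BC4 (ENSG00000180596) spans chr6:26114873-26123926 on the minus strand. H2AC11 (ENSG00000196787) spans chr6:27133042-27135291 and H4C5 (ENSG00000276966) chr6:26204552-26206038, both on the plus strand. Reads were counted over the exons of each.

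H2BC21 had the smallest adjusted p of the 22. Its level was 5.79, 5.56 and 4.82 CPM at 10% CO2 with LPS, against 2.28, 1.88 and 1.85 CPM at 10% CO2. The groups were far from overlapping, with 93 to 101 counts against 37 to 50. The log2 change was 1.42 ± 0.18 SE (2.68-fold, adjusted p = 4.43e-06). H2BC18, an H2B gene with 4 exon blocks, had 3.96, 2.75 and 3.10 CPM at 10% CO2 with LPS, against 2.00, 1.62 and 0.751 CPM at 10% CO2. All LPS libraries lay above, and the log2 change was 1.17 ± 0.31 (adjusted p = 0.00606). FCGR1A, the Fc receptor gene with which H2BC18 shares 177 counted bases, also rose with LPS at 10% CO2, by 0.42 ± 0.08 at a level of 120 ± 5.06 CPM against 89.4 ± 7.09 CPM (SD, n = 3, adjusted p = 0.00036). Its part in the counts of H2BC18 was not tested.

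The other 3 calls rested on few counts. H4C5 had 1.36, 1.73 and 1.19 CPM (23, 29 and 25 counts) at 10% CO2 with LPS, against 0.820, 0.406 and 0.309 CPM (18, 8 and 7 counts) at 10% CO2. Its log2 change was 1.46 ± 0.44 (adjusted p = 0.0145). H2BC4 had 0.946, 0.957 and 0.811 CPM at 10% CO2 with LPS, against 0.501, 0.253 and 0.353 CPM at 10% CO2, with a log2 change of 1.26 ± 0.39 (adjusted p = 0.0175). H2AC11 had 1.36, 1.38 and 1.15 CPM at 10% CO2 with LPS, against 0.683, 0.811 and 0.177 CPM at 10% CO2, with a log2 change of 1.22 ± 0.41 (adjusted p = 0.0273). The groups did not overlap for any of these 3 genes.

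The calls of H2BC21 and H2BC18 held with any library left out, and those of the other 3 did not. Without 10% CO2 replicate 3, the library low in H4C3, the 5 calls became 3: H2BC21, H2BC18 and H1-2. The adjusted p was then 0.0776 for H4C5, 0.0569 for H2BC4 and 0.134 for H2AC11, whose log2 change was 0.78. Without 10% CO2 replicate 2 it was 0.058 for H4C5 and 0.0768 for H2BC4, while H2BC12 was called. Without replicate 2 at 10% CO2 with LPS, 2 calls were left, with adjusted p = 0.0617 for H4C5, 0.0515 for H2BC4 and 0.0711 for H2AC11. Without replicate 1 of that group 3 calls were left, and the adjusted p was 0.0502 for H2BC4 and 0.0664 for H2AC11.

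**Figure D4:**
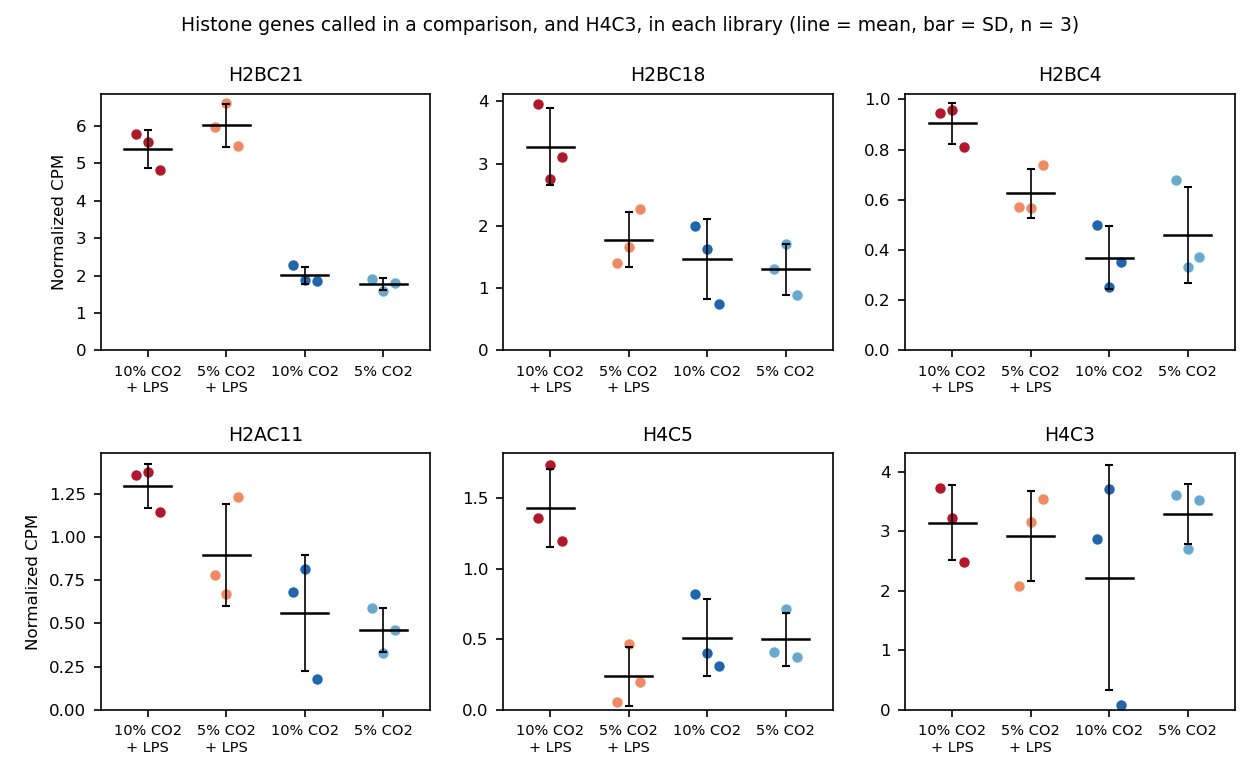
TMM-normalized CPM of the 5 called histone genes and of H4C3 in each library (points), with the mean (line) and SD (bar) of 3 libraries a group; every y axis starts at 0. H2BC21 is high in both LPS groups, H4C5 has its 3 highest libraries at 10% CO2 with LPS, and H4C3 has 1 library near 0 at 10% CO2.

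At 5% CO2, LPS raised 1 histone gene. H2BC21 had 5.97, 6.62 and 5.46 CPM at 5% CO2 with LPS, against 1.90, 1.60 and 1.81 CPM at 5% CO2. The groups lay far apart, and the log2 change was 1.76 ± 0.18 SE (3.38-fold, adjusted p = 4.84e-07). This was 1 of 22 tested (4.55%), beside 24.9% of all genes called and 11.8% called higher. The call held with any library left out. Leaving out 10% CO2 replicate 3 added H3C12 (adjusted p = 0.0478), and leaving out replicate 2 at 5% CO2 with LPS added H4C14 (adjusted p = 0.0303). The median log2 change of the 22 was 0.29, against −0.01 over all genes, with 15 above 0.

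The genes that missed the threshold at 5% CO2 did not all move the same way. H3C12, the only H3 gene tested, had 0.104, 0.103 and 0.344 CPM (2, 2 and 7 counts) at 5% CO2 with LPS, against 0.768, 0.662 and 0.511 CPM (17, 12 and 11 counts) at 5% CO2. Its log2 change was −1.76 ± 0.73 (adjusted p = 0.0863). Outside 5% CO2, H3C12 reached 10 counts only in replicate 3 at 10% CO2 with LPS (14). For this gene the filter therefore favours a change below 0 in comparisons with 5% CO2. H2AC11 had 0.779, 0.672 and 1.23 CPM at 5% CO2 with LPS, against 0.587, 0.331 and 0.464 CPM at 5% CO2, a log2 change of 0.93 ± 0.44 (adjusted p = 0.139). H2BC18 and H2BC4 had log2 changes of 0.46 ± 0.33 and 0.42 ± 0.40, and H4C5 had −1.02 ± 0.58 (adjusted p = 0.229). The 2 H1 genes had −0.07 and −0.73.

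H2BC21 lies head to head with H2AC20 on chromosome 1, and both share the stretch between their start sites. RefSeq (GRCh38.p14) places these starts at 149886682 and 149886918, with 235 bases between them. The stretch is shown because a gene called with LPS and a neighbour that was not lie on its 2 sides. It is written 5′ to 3′ on the minus strand, so that H2BC21 begins after its last base, and capitals mark the letters CCAAT, the letters TATAAA and the octamer ATTTGCAT, each on either strand.
H2BC21 to H2AC20, chr1:149886683-149886917, minus strand: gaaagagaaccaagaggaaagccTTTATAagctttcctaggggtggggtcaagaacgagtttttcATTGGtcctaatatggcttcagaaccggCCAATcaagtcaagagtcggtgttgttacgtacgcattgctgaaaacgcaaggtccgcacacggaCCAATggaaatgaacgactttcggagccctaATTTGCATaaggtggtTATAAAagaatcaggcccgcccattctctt
With positions counted from each start, the octamer begins at −46 for H2BC21 and, read on the opposite strand, at −197 for H2AC20. Each gene has its own TATAAA, at −30 for H2BC21 and −29 for H2AC20. H2AC20, on the other side, had log2 changes of 0.29 ± 0.24 at 10% CO2 and 0.49 ± 0.24 at 5% CO2 with LPS, beside 1.42 ± 0.18 and 1.76 ± 0.18 for H2BC21. The counted exons of H2BC21 run 1729 bases past its stem-loop and those of H2AC20 stop before theirs.

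The same letters were frequent in histone promoters. In RefSeq windows of 250 bases before to 50 after the start, 60 of the 65 genes could be matched by symbol. The octamer stood in 26 of 60 (43.3%), against 1.80% of 27305 promoters: in 14 of 18 H2B, 11 of 14 H2A and 1 of 9 H3 genes, and in 0 of 13 H4 and 0 of 6 H1 genes. CCAAT stood in 50 of 60 (83.3%, against 35.7%) and TATAAA in 39 of 60 (65%, against 11.95%), searched on both strands, and neither contains the other or the octamer. The kappa B consensus, also searched on both strands, was matched in 3 of 60 (5.0%), among them H4C9, against 10.8% of all promoters. Of the 5 genes called with LPS at 10% CO2, H2BC21, H2BC18, H2BC4 and H2AC11 had the octamer and H4C5 did not. H2BC12, H2AC20 and H2BC9, which were not called, had it too. A match is no evidence of binding.

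With LPS present, raised CO2 was associated with 1 histone call, the H4 gene H4C5. It had 1.36, 1.73 and 1.19 CPM at 10% CO2 with LPS, against 0.0520, 0.465 and 0.197 CPM at 5% CO2 with LPS. In counts these were 23, 29 and 25 against 1, 9 and 4, so the groups were well separated although the numbers were small. The log2 change was 2.55 ± 0.51 SE (95% interval 1.48 to 3.62, adjusted p = 0.0064), the highest of all 16402 genes tested. That rank depends on the filter. Outside the group in which it was high, H4C5 reached 10 counts only in 10% CO2 replicate 1 (18) and 5% CO2 replicate 2 (13). With no filter on low counts, its log2 change was 2.53 and that of H4C6 was 5.41. Leaving out any of the 12 libraries kept the call of H4C5, with adjusted p between 0.00456 and 0.0398. The size of the change moved with the libraries at 5% CO2 with LPS, to 3.44 on the log2 scale without replicate 2 and 2.09 without replicate 1. DESeq2 gave it a log2 change of 2.59 with an unadjusted p of 1.12e-05 but, by its own filter on low counts, no adjusted p. The share of histone genes called, 1 of 22 (4.55%), stands beside 8.75% of all genes called and 4.29% called higher.

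The other histone genes were mostly above 0 in this comparison without passing the test. The median log2 change was 0.38, against −0.01 over all genes, and 17 of 22 lay above 0. These include H4C5 and H4C14, which the libraries at 10% CO2 with LPS helped past the filter, and the shift was not tested. H2BC18 had 3.96, 2.75 and 3.10 CPM at 10% CO2 with LPS, against 1.40, 1.65 and 2.26 CPM at 5% CO2 with LPS. These did not overlap, and its log2 change was 0.88 ± 0.30 (adjusted p = 0.0779). It was called, at an adjusted p of 0.0412, when 10% CO2 replicate 3 was left out, and H4C14 was, at 0.0435, when replicate 3 at 5% CO2 with LPS was. H4C8 had 1.24, 0.598 and 0.525 CPM against 0.468, 0.465 and 0.344 CPM in the same order of groups (log2 change 0.86 ± 0.43, adjusted p = 0.224). H4C14 had 1.01, 1.49 and 0.764 CPM against 0.468, 0.207 and 1.18 CPM (log2 change 0.78 ± 0.47, adjusted p = 0.314). H2BC21 stood at −0.16 ± 0.16 (95% interval −0.50 to 0.18).

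Other RNA measures also had their highest group mean at 10% CO2 with LPS. RN7SL2, a small RNA without a poly(A) tail, had 164 ± 66.3 CPM at 10% CO2 with LPS and 31.9 ± 26.7 CPM at 5% CO2 with LPS (SD, n = 3), a log2 change of 2.36 ± 1.00 that did not pass the test (adjusted p = 0.19). At 10% CO2 it had 74.1 ± 60.1 CPM and at 5% CO2 39.9 ± 28.0 CPM. It supplied nearly all counts of the 20 RNAs without a tail that were listed, whose sum was 165 ± 66.4, 32.5 ± 27.0, 74.6 ± 60.2 and 40.5 ± 28.2 CPM in the same order of groups. Only 13 of the 20 had any count, and RN7SL2 alone passed the filter. Mitochondrial mRNAs summed to 33583 ± 10849, 16195 ± 2743, 24604 ± 5430 and 14552 ± 3352 CPM. Without LPS, too, their sum was higher at 10% than at 5% CO2, where the histone sums were 35.8 and 35.2 CPM, but 0 of 13 were called. At 10% against 5% CO2 with LPS, 6 of 13 rose, beside 4.29% of all genes called higher. MT-ND5, MT-ND4L and MT-ND6 had log2 changes of 1.06 ± 0.20, 1.30 ± 0.25 and 1.03 ± 0.23. With LPS at 10% CO2 against none, MT-ND3 alone rose (0.34 ± 0.11). Their part in the histone values was not tested.

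Without LPS, no histone gene passed the test between 10% and 5% CO2. Of 22 genes, 0 were called by edgeR and 1 had an unadjusted p under 0.05, beside 1.46% of all genes called. DESeq2 called 0 of the 10 to which it gave an adjusted p. The smallest p was that of H3C12, with 0.273, 0.406 and 0 CPM (6, 8 and 0 counts) at 10% CO2, against 0.768, 0.662 and 0.511 CPM at 5% CO2. The groups did not overlap, and the log2 change was −1.53 ± 0.69 (adjusted p = 0.259). H3C12 passed the filter mainly through 5% CO2, which favours a change below 0 here. H2BC26 followed, with 0.137, 0.355 and 0.221 CPM at 10% CO2 against 0.497, 0.496 and 0.325 CPM at 5% CO2 (−0.88 ± 0.52, adjusted p = 0.394). H2AC6 had 3.64, 2.48 and 1.85 CPM at 10% CO2 and 3.07, 1.60 and 0.835 CPM at 5% CO2 (0.52 ± 0.35, adjusted p = 0.468). H2BC26 and H2AC6 overlapped between the groups. The median log2 change was 0.05, against −0.01 over all genes, with 12 above 0 and 10 below. For H2BC12, the most abundant gene, the log2 change was 0.12 ± 0.16 (95% interval −0.22 to 0.45). For H4C5 the log2 change was 0.07 ± 0.50.

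**Figure D5:**
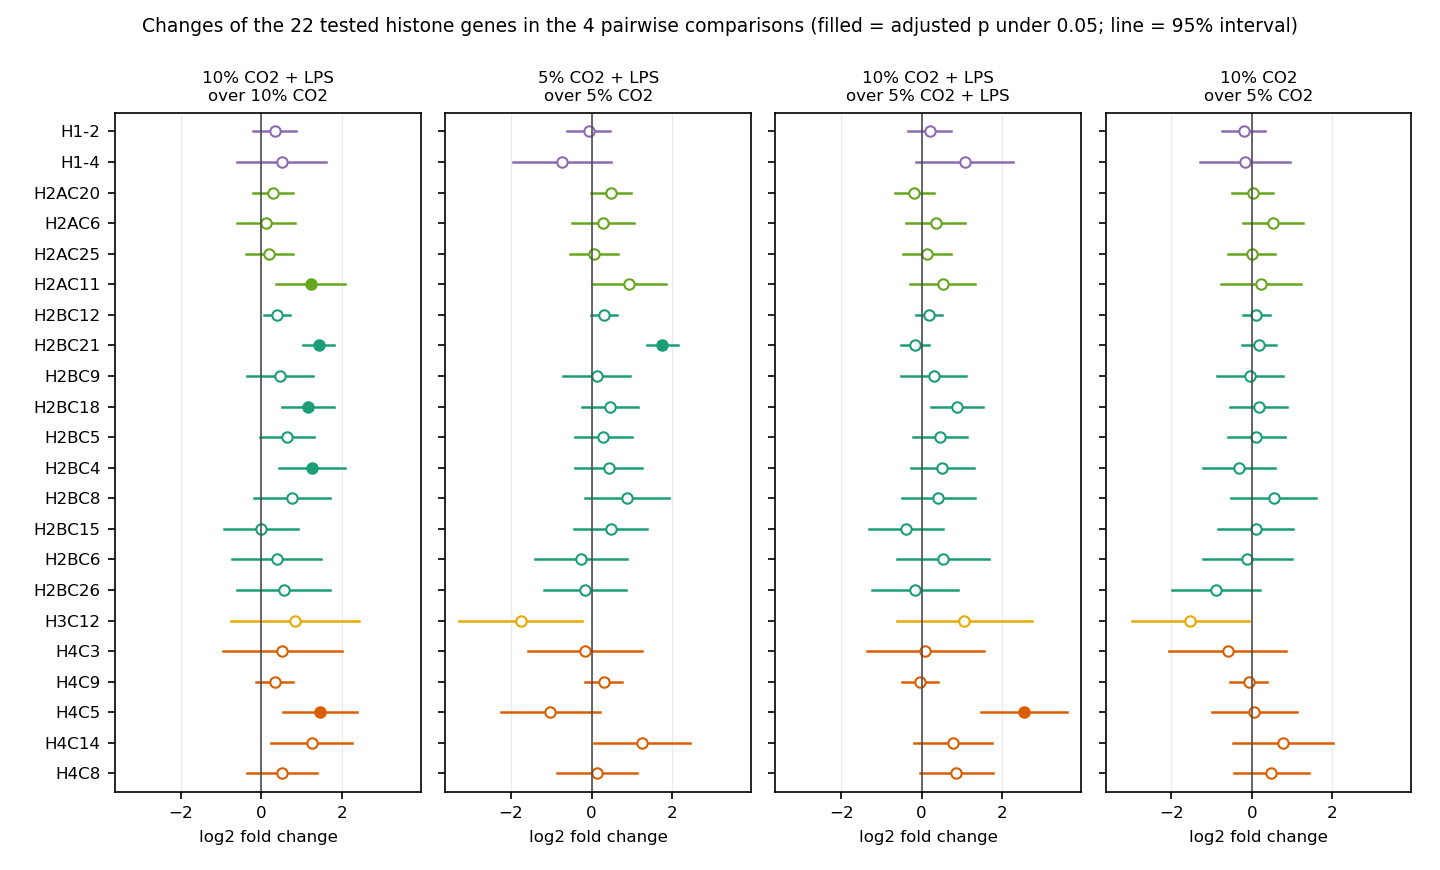
Log2 fold changes of the 22 tested histone genes in the 4 pairwise comparisons (columns), with 95% intervals as lines; filled points are called at an adjusted p under 0.05, and colours mark families. With LPS at 10% CO2, 21 of 22 points lie right of 0 and 5 are filled, whereas 10% against 5% CO2 without LPS has 12 points to the right and none filled.

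Whether LPS acted differently at the 2 CO2 levels was tested as an interaction (log2 change with LPS at 10% CO2 less the one at 5% CO2). No histone gene was called by edgeR (0 of 22), 2 had an unadjusted p under 0.05, and 0.0244% of all genes were called. DESeq2 gave an adjusted p to 1 of the 22, H2BC12, and did not call it. H4C5 had the smallest p, with a difference of 2.48 ± 0.73 on the log2 scale (adjusted p = 0.454). H3C12 followed with 2.60 ± 1.06 (adjusted p = 0.755) and H1-4 with 1.23 ± 0.78 (adjusted p = 0.907). H4C5 passed the filter mainly through 10% CO2 with LPS and H3C12 mainly through 5% CO2, which favours a difference above 0 for both. H1-4, a linker histone gene, had 1.36, 0.179 and 0.525 CPM at 10% CO2 with LPS, 0.2598, 0.362 and 0.344 CPM at 5% CO2 with LPS, 0.501, 0.304 and 0.618 CPM at 10% CO2, and 0.452, 0.772 and 0.418 CPM at 5% CO2. A single library, replicate 1 at 10% CO2 with LPS, holds its high value. The 5 calls at 10% CO2 beside 1 at 5% CO2 are therefore not shown to differ. For H2BC21, called at both levels, the difference was −0.34 ± 0.26 (95% interval −0.88 to 0.20).

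Averaged over LPS, 10% against 5% CO2 gave 1 histone call of 22 (4.55%), beside 16.8% of all genes called and 8.06% called higher. This was H4C5 again (1.31 ± 0.36, adjusted p = 0.0199), and it uses the same LPS libraries as the call above. Without LPS the change was 0.07. The adjusted p was 0.051 without replicate 2 at 10% CO2 with LPS, 0.0759 without 10% CO2 replicate 1 and 0.0547 without replicate 1 at 5% CO2 with LPS. H2BC18 (0.52 ± 0.23, adjusted p = 0.121) and H4C8 (0.67 ± 0.31, adjusted p = 0.146) followed without passing. Leaving out 10% CO2 replicate 3 gave 4 calls: H4C5, H2BC18, H2AC8 and H1-3. H2AC8, an H2A gene that passed the filter only with some libraries left out, was also called without 10% CO2 replicate 2, without replicate 2 or 3 at 5% CO2 with LPS, and without any 1 replicate at 5% CO2, which gave 2 or 3 calls each. It was the 1 call in each of the fits in which H4C5 lost its own, and it was called too with no filter on low counts. It had 13, 6 and 17 counts at 10% CO2 with LPS, 5, 1 and 5 at 5% CO2 with LPS, 10, 5 and 9 at 10% CO2, and 3, 3 and 2 at 5% CO2. Where it passed the filter, H2AC8 did so mainly through replicates 1 and 3 at 10% CO2 with LPS, which favours a change above 0. With either of those libraries left out it was not called.

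By family, the changes with LPS at 10% CO2 had medians of 0.60 in the 10 H2B genes, 0.52 in the 5 H4 genes, 0.24 in the 4 H2A genes and 0.42 in the 2 H1 genes, and H3C12 stood at 0.83 ± 0.76. At 5% CO2 the medians were 0.37 in H2B, 0.13 in H4, 0.39 in H2A and −0.40 in H1. Among the 15 tested genes counted beyond the stem-loop, 4 rose with LPS at 10% CO2 (median 0.56). Among the 6 not counted beyond it 0 rose (median 0.44), and the other call, H2AC11, had no stem-loop found. At 5% CO2 those medians were 0.29 and −0.12. These are descriptions of few genes, and the difference was not tested. H2BC9, an H2B gene with 1640 counted bases beyond its loop, showed how wide single genes could spread: 3.13, 3.47 and 5.92 CPM at 10% CO2 with LPS, and 1.69, 3.04 and 4.42 CPM at 10% CO2.

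The genes listed as replication-independent histone genes, most of which are not confined to S phase and yield mRNAs with poly(A) tails, were far more abundant. All 11 on the list were tested, and they summed to 3380 ± 30.3 CPM at 10% CO2 with LPS, 3573 ± 22.7 at 5% CO2 with LPS, 2928 ± 230.2 at 10% CO2 and 3010 ± 109.9 at 5% CO2 (SD, n = 3). With LPS, 3 rose and 1 fell at each CO2 level, and none passed with CO2 in either comparison. Of all genes, 35.2% were called with LPS at 10% CO2, a share near that of this list, and 24.9% at 5% CO2. Whether the list differs from other genes was not tested. H3-3B, which encodes the variant H3.3, had 798 ± 25.3 CPM at 10% CO2 with LPS against 559 ± 27.7 CPM at 10% CO2 (log2 change 0.51 ± 0.08, adjusted p = 2.67e-05). At 5% CO2 it had 866 ± 48.3 CPM with LPS against 615 ± 44.7 CPM (0.49 ± 0.08, adjusted p = 6.31e-05). H2AZ2, an H2A.Z gene, rose at 10% CO2 (0.23 ± 0.07) and at 5% CO2 (0.20 ± 0.07, adjusted p = 0.0368), as did H3-3A, another H3.3 gene (0.23 ± 0.08 and 0.24 ± 0.08). CENPA, the centromeric H3 variant, fell to 14.6 ± 2.90 CPM at 10% CO2 with LPS, against 29.9 ± 4.54 CPM at 10% CO2 (log2 change −1.02 ± 0.14, adjusted p = 1.59e-05), and with LPS at 5% CO2 its log2 change was −0.63 ± 0.14 (adjusted p = 0.00246). Per kilobase of counted exon, H3-3B had 130.1 CPM at 10% CO2 with LPS, and H2BC12, the highest replication-dependent gene, averaged 13.6 CPM over all libraries.

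Among 22 genes that act on histone gene transcription or histone mRNA ends, all tested, 2 rose and 6 fell with LPS at 10% CO2, and 1 rose and 6 fell at 5% CO2. These counts stand beside 35.2% of all genes called at 10% CO2 and 24.9% at 5% CO2, to which the shares of this list were close. CCNE2, a cyclin E that with CDK2 activates the histone gene factor NPAT, had 69.9 ± 11.4 CPM at 10% CO2 with LPS against 24.3 ± 1.89 CPM at 10% CO2 (log2 change 1.52 ± 0.13, adjusted p = 2.63e-08). At 5% CO2 it had 52.1 ± 8.46 CPM with LPS against 26.5 ± 2.35 CPM (0.98 ± 0.13). LSM10, a subunit of the U7 particle, fell with LPS, at −0.64 ± 0.11 at 10% CO2 and −0.42 ± 0.11 at 5% CO2. ERI1, an exonuclease that trims histone mRNA ends, fell at 10% CO2 (−0.36 ± 0.11) and at 5% CO2 (−0.33 ± 0.11). CASP8AP2, also called FLASH, which takes part in 3′ cleavage, fell at 5% CO2 (−0.51 ± 0.11) and had −0.21 ± 0.11 at 10% CO2 (adjusted p = 0.17). Between CO2 levels with LPS, 2 rose and 0 fell: the cap-binding gene NCBP1, with 109 ± 9.42 CPM at 10% CO2 against 70.1 ± 9.50 CPM at 5% CO2 (0.64 ± 0.11, adjusted p = 0.00314), and CCNE2 (0.42 ± 0.13, adjusted p = 0.0434). ZNF473, a U7 particle partner, had 0.34 ± 0.11 there (adjusted p = 0.0631) and rose in the average over LPS (0.27 ± 0.08, adjusted p = 0.0225), as did NCBP1 (0.52 ± 0.08). UPF1, a helicase of histone mRNA decay, had 0.14 ± 0.05 in that average (adjusted p = 0.0745). Without LPS, 0 of 22 passed. Of all genes, 8.75% were called between CO2 levels with LPS (4.29% higher), 16.8% in the average over LPS (8.06% higher) and 1.46% without LPS.

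Genes of DNA replication and S phase had medians near 0. Of 42, all tested, 3 rose and 6 fell with LPS at 10% CO2, and 2 rose and 2 fell at 5% CO2. These are smaller shares than the 35.2% of all genes called at 10% CO2 and the 24.9% at 5% CO2. The difference was not tested. The median log2 changes were 0.01 and 0.02. UHRF1, which guides maintenance DNA methylation, fell to 76.9 ± 3.15 CPM at 10% CO2 with LPS, against 150.5 ± 11.5 CPM at 10% CO2 (−0.97 ± 0.10, adjusted p = 1.8e-07), and its log2 change at 5% CO2 was −0.60 ± 0.09. GINS4, of the replicative helicase, rose at 10% CO2 (0.41 ± 0.10) and at 5% CO2 (0.27 ± 0.10, adjusted p = 0.0479). CDT1, a licensing factor, fell at 10% CO2 (−0.57 ± 0.17, adjusted p = 0.0171) and at 5% CO2 (−0.49 ± 0.17, adjusted p = 0.0476). Between CO2 levels with LPS, 0 rose and 2 fell, the ligase gene LIG1 (−0.43 ± 0.10, adjusted p = 0.0161) and UHRF1 (−0.36 ± 0.10, adjusted p = 0.0259), and MCM5 had −0.26 ± 0.10 (adjusted p = 0.114). In the average over LPS, 2 rose and 3 fell, among them LIG1 (−0.39 ± 0.07), GINS2 (0.25 ± 0.08) and POLE (−0.20 ± 0.06). Without LPS, 0 of 42 passed. Of all genes, 8.75% were called between CO2 levels with LPS, 16.8% in the average over LPS and 1.46% without LPS.

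Of 28 mitotic genes, all tested, 1 rose and 14 fell with LPS at 10% CO2 (median log2 change −0.29), beside 18.6% of all genes called lower. At 5% CO2, 2 rose and 8 fell (median −0.13), beside 13.1% called lower. Whether the list differs from other genes was not tested. The mitotic kinase genes AURKA (−0.79 ± 0.11) and TTK (−0.60 ± 0.10) fell at 10% CO2 and also at 5% CO2 (−0.61 ± 0.11 and −0.50 ± 0.10). CDK1, the mitotic cyclin-dependent kinase, rose at 10% CO2 (0.72 ± 0.11) and at 5% CO2 (0.51 ± 0.11). It also rose at 10% against 5% CO2 with LPS (0.37 ± 0.11, adjusted p = 0.0341), where 1 rose and 3 fell, among them INCENP (−0.45 ± 0.11) and KIF23 (−0.44 ± 0.11), both of cell division, beside 4.46% of all genes called lower. In the average over LPS 1 rose and 4 fell, beside 8.69% of all genes called lower, with INCENP at −0.39 ± 0.07, KIF23 at −0.32 ± 0.08 and the kinase gene NEK2 at −0.31 ± 0.08. Without LPS, 0 of 28 passed.

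Of 18 genes of histone chaperones, which carry new histones to DNA, all were tested. With LPS 3 rose and 1 fell at each CO2 level, so the share that rose was near the 16.6% called higher among all genes at 10% CO2. DAXX, a chaperone of H3.3, had 170 ± 3.00 CPM at 10% CO2 with LPS against 124 ± 5.65 CPM at 10% CO2 (0.45 ± 0.08), and NAP1L1, a carrier of H2A and H2B, had 640 ± 27.5 against 481 ± 47.4 CPM (0.41 ± 0.08). HAT1, which acetylates new H4, rose at 10% CO2 (0.37 ± 0.09) and at 5% CO2 (0.28 ± 0.09). At 5% CO2, DAXX (0.34 ± 0.08) and NAP1L1 (0.28 ± 0.08) rose too. CABIN1, of an H3.3 deposition complex, fell at 10% CO2 (−0.42 ± 0.11) and at 5% CO2 (−0.35 ± 0.11). No chaperone gene passed with CO2 at either LPS level. In the average over LPS CHAF1B, of chromatin assembly factor 1, fell (−0.24 ± 0.07, adjusted p = 0.0299), while NAP1L4 (0.13 ± 0.05) and NASP (−0.11 ± 0.06) did not pass.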

How the data were processed

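RNA was measured in 12 poly(A)-selected, paired-end libraries of THP-1 cells. The deposited values were raw counts per Ensembl gene, 1 table per library. The submitters' processing notes name Trimmomatic 0.36, STAR 2.5.2b, featureCounts of Subread 1.5.2, and GRCh38. The annotation release, strand setting and treatment of reads with several places were not given in the sources used here. Such reads, and those of overlapping genes, can be missing or misassigned.

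Groups came from the sample titles. Identifiers were given current symbols from a reference table (56410 of 57500, 98.1%, holding 99.5% of counts), and no per-sample column went unused. Counts were fitted in R 4.3.3 with edgeR 4.0.16, using filterByExpr on the groups (16402 genes kept), TMM factors, robust quasi-likelihood F tests on 4 group means over 12 libraries, and Benjamini-Hochberg adjustment over all genes. A call is an adjusted p under 0.05. The common biological coefficient of variation was 10.7%. A log2 change's SE is its size divided by the square root of F. CPM values use TMM library sizes, and ± is the SD over 3 libraries for a level and the SE for a log2 change. Floors of 3 counts cover counting error only. The test was checked on counts simulated with the same biological coefficient of variation for all genes. That check does not cover genes that vary more between libraries, such as H4C3. Libraries of a group differed by more than sampling noise in every pair.

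Alternatives were DESeq2 1.42.0, its size factors, no low-count filter, only the compared groups, a replicate block, GC and length corrections, and leaving out each library. Members and gene lists were chosen with earlier results of these data known. Named genes follow a rule: called members, the 6 highest per length, the 3 smallest p where none was called, and the 3 smallest p of each list with a call. H2BC9, H4C8, H4C14 and others outside it were chosen after their values were seen. Stem-loops and motifs were searched in GRCh38 and RefSeq (GRCh38.p14) sequence.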

Additional observations from a re-analysis of the deposited data

How the results depend on the processing

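No result changed sign. The count of called histone genes stayed at 0 without LPS and in the interaction under every alternative run, although DESeq2 gave an adjusted p to 10 of the 22 genes without LPS and to 1 in the interaction. At 10% against 5% CO2 with LPS it was 1, but 0 by DESeq2, which gave H4C5 no adjusted p, 3 with no low-count filter (with H2BC18 and H4C6), 2 with only the compared groups, and 1 to 2 with a library left out. H4C6 had 4, 8 and 2 counts at 10% CO2 with LPS against 0, 0 and 0 at 5% CO2 with LPS. For LPS at 5% CO2 it was 1, but 2 with the length correction (with H3C12, adjusted p = 0.0474), 3 with no filter, 2 with only the compared groups, 2 with a replicate block and GC correction (with H2AC20, adjusted p = 0.0486), and 1 to 2 with a library left out. For LPS at 10% CO2 it was 5, but 6 with the GC correction (with H2BC12, adjusted p = 0.0127), 6 with median-of-ratios size factors and with only the compared groups (both with H4C14), 4 with no filter, and 2 to 6 with a library left out. Averaged over LPS it was 1, but 2 with no filter (with H2AC8) and 1 to 4 with a library left out. With no filter, H2BC4 lost its call (adjusted p = 0.0665).

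Replicate numbers were not used to pair the samples in the main fit. Same-number correlations ranged from −0.13 to 0.24. For LPS at 10% CO2 they were 0.24, 0.18 and 0.096, above the highest other-number values of −0.063, −0.017 and 0.027. In every other pairwise comparison, not all replicates had the same-number value above the other-number ones. Whether the numbers mark shared batches was not tested. A replicate block gave 6 calls for LPS at 10% CO2 (H2BC12 added) and changed no other call in the uncorrected fits. The summed level's log2 difference with LPS was 0.0812 at 5% CO2 without the 3 genes with the most counts (H2BC12, H2BC21, H2BC9) and 0.37 at 10% CO2 without TMM factors, against 0.26 and 0.59 as reported. Of 283 log2 changes recomputed, 269 kept their side of the threshold and 14 lost it. The 283 include results not called in the main fit, such as H4C5 in the interaction, which had no call to lose. With LPS at 10% CO2, H2BC4 lost its call in 5 fits and kept it in 16. H2AC11 and H4C5 there each lost it in 3 and kept it in 18. Averaged over LPS, H4C5 lost it in 3 and kept it in 17. The median level of the 22 tested genes was 1.03 CPM, where 3 counts give 0.132 to 0.179 CPM.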
